A study of Mus musculus with 12 samples.

Results

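Ddx3x, Eif2s3x, Pbdc1, 5530601H04Rik, Utp14a and Car5b are X-linked mouse genes reported to escape X inactivation. Their histone methylation was followed in cells with and without SmcHD1. Whether each gene escaped in these cells was not measured here. The 6 genes were taken by name from a table of 952 X-linked genes, and all 6 had a value in each of 8 ChIP-seq libraries, as had 698 genes in all. The histone marks H3K27me3 and H3K9me3, both typical of silent chromatin, were profiled by ChIP-seq, in which DNA bound to a marked histone is pulled down with an antibody and sequenced. The cells were female MEFs (embryonic fibroblasts, E13.5) and EpiSCs (epiblast stem cells, E6.5). The mutant cells were homozygous for the MD1 allele of Smchd1 (MD1), which removes the chromosomal protein SmcHD1, and the control cells were wild type for it (WT). Mutant and control cells alike were female, came from a cross of C57BL6/J with a JF1 x C57BL6/J F1 hybrid and carried the deltaA deletion of Xist on 1 X, which leaves the X with intact Xist to be inactivated. The 12 samples were 8 ChIP libraries and 4 inputs, with 1 library in each group.

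In female mammals an X chromosome is silenced by the RNA Xist, gains H3K27me3 over most genes and, in places, H3K9me3, and is kept silent with the help of SmcHD1. A minority of genes escapes, which means that they are also transcribed from the inactive X, and in mouse such genes often stand alone among silenced neighbours. Ddx3x encodes an RNA helicase and Eif2s3x a subunit of a translation initiation factor, and both have a counterpart on the Y chromosome. Utp14a encodes a protein of the machinery that matures the small ribosomal subunit, and Car5b a mitochondrial carbonic anhydrase. Pbdc1 encodes a protein of little known function, and 5530601H04Rik is a long non-coding RNA gene in RefSeq.

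The 6 genes lie at 5 places on the X. In mm9, Ddx3x spans chrX:12858148-12871109 and Utp14a chrX:45610111-45635626, both on the plus strand. Eif2s3x spans chrX:91434048-91457990 on the minus strand. 5530601H04Rik (chrX:102236193-102265463, minus strand) and Pbdc1 (chrX:102275095-102312429, plus strand) are neighbours transcribed away from each other, with 9.63 kb between their starts. Car5b spans chrX:160414754-160465942 on the minus strand. The last 5658 bases of Utp14a, 22.2% of the gene, are also covered by the antisense gene 9530027J09Rik, and ChIP reads there cannot be told apart.

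The 250 bases before the annotated start are shown for 5 of the genes. These are Eif2s3x with low marks, Utp14a and Car5b, which parted in MD1 MEFs, and the divergent neighbours, nearly equal in H3K27me3 in MEFs. The sequences are from RefSeq (GRCm38.p6, another build than that of the values), read 5′ to 3′ on the gene's strand, with CG dinucleotides in capitals.
Eif2s3x: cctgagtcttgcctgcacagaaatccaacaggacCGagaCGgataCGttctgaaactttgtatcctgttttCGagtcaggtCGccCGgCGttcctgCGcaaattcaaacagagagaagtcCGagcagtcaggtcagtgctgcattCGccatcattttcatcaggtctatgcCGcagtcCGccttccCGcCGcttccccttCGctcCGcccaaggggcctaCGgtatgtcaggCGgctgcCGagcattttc
Utp14a: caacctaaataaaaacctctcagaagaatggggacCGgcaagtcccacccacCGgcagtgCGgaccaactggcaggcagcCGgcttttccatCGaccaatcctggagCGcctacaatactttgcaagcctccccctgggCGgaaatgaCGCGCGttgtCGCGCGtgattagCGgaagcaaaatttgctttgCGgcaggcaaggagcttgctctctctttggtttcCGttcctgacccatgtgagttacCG
Car5b: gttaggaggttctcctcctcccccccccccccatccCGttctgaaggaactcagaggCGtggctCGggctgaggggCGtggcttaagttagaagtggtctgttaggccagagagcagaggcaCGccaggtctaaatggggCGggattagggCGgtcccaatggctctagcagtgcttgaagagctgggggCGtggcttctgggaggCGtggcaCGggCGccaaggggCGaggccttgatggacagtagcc
Pbdc1: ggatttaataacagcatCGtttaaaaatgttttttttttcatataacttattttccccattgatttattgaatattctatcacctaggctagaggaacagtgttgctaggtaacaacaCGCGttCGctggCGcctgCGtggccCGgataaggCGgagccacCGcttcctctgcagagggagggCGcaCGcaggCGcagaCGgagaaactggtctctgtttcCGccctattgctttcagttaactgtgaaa
5530601H04Rik: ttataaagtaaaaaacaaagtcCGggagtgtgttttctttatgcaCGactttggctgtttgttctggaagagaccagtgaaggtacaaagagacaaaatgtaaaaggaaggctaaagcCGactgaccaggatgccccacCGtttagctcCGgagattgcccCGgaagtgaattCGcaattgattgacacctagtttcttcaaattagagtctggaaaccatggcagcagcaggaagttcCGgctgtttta
In GRCm38.p6 these windows are chrX:94212652-94212901 (Eif2s3x, minus strand), chrX:48256684-48256933 (Utp14a, plus strand), chrX:164028011-164028260 (Car5b, minus strand), chrX:105079506-105079755 (Pbdc1, plus strand) and chrX:105070125-105070374 (5530601H04Rik, minus strand). CG, which reads the same on both strands, occurred 19 times at Eif2s3x, 17 times at Utp14a, 14 times at Pbdc1, 12 times at Car5b and 8 times at 5530601H04Rik. The window of Ddx3x, not shown, held 22. The median over 1046 X-linked promoters of the same length was 5. All 6 genes were above it, and the share of these promoters with at least as many CG was 9.85% for Eif2s3x, 13.7% for Utp14a, 21.0% for Pbdc1, 25.6% for Car5b, 36.7% for 5530601H04Rik and 6.12% for Ddx3x. The deposited values are per gene and hold no separate value for these windows.

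Values are log2 enrichment per gene as deposited, behaving as the ratio of ChIP to input over the same gene, so that gene length cancels. Each library carries 1 unknown constant, so differences within a library are free of it and differences between libraries are not. The sources used here do not give whether reads of 1 X or both entered. Intervals are 95% counting intervals from whole-number read counts recovered from the values, and cover counting error only. The smallest fitting input counts of the 6 genes were 51 to 409. The ChIP counts found in the same way ran from 3 (Ddx3x, H3K9me3 in MD1 EpiSCs) to 4033 (Car5b, H3K27me3 in WT EpiSCs). True counts may be multiples of these, in which case the intervals are too wide. With 1 library per group no spread between cultures could be measured and no test was made. Each value averages over all cells of a library, so fewer cells with a mark and less of it per cell cannot be told apart. H3K9me3 in MD1 EpiSCs was the shallowest ChIP, with a median count of 13 per gene against 29 to 678 in the other libraries. Smchd1 is not X-linked and was not analysed here, which left the genotype labels without a check.

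In MEFs, H3K27me3 divided the 6 genes into 4 with little of the mark in either genotype, 1 that had it only in the WT library, and 1 that had it in both. Ddx3x had −3.04 in MD1 MEFs and −1.06 in WT MEFs. Eif2s3x had −3.12 in MD1 MEFs and −1.24 in WT MEFs. Both were under 0 in both genotypes. Pbdc1 had −1.87 in MD1 MEFs and −0.72 in WT MEFs. Its divergent neighbour 5530601H04Rik had −1.97 in MD1 MEFs and −0.70 in WT MEFs, within 0.1 of Pbdc1 in each. Utp14a had −1.42 in MD1 MEFs and 2.15 in WT MEFs, and so was the single gene of the 6 that crossed 0. Car5b had 2.24 in MD1 MEFs and 2.24 in WT MEFs, in each close to the library median of 2.38 (MD1) or 2.09 (WT).

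Among all genes measured, the 4 low genes stood near the bottom in WT MEFs. Counted from the lowest of 747 genes, Eif2s3x had rank 8, Ddx3x 12, Pbdc1 24 and 5530601H04Rik 25, while Utp14a had 404 and Car5b 449. The counting intervals of Eif2s3x (−1.58 to −0.90) and Ddx3x (−1.59 to −0.53) overlapped, as did those of Pbdc1 (−0.95 to −0.48) and 5530601H04Rik (−1.03 to −0.37), so their order within each pair is not set by these counts. In MD1 MEFs 5 of the 6 genes were under 0, where 17.77% of all genes were, and in WT MEFs 4 of the 6, where 6.693% were.

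In EpiSCs the low genes were spread out rather than grouped in H3K27me3. Ddx3x had −0.090 in MD1 EpiSCs and −1.20 in WT EpiSCs. It was the only one of the 6 under 0, where 2.31% of all genes were in MD1 EpiSCs and 10.01% in WT EpiSCs. Eif2s3x had 1.18 in MD1 EpiSCs and 1.69 in WT EpiSCs. 5530601H04Rik had 1.54 in MD1 EpiSCs and 2.86 in WT EpiSCs. These values lay above 0, though under the library medians of 4.07 in MD1 and 4.17 in WT. Pbdc1 had 1.73 in MD1 EpiSCs and 3.29 in WT EpiSCs. Utp14a had 2.92 in MD1 EpiSCs and 4.13 in WT EpiSCs. Car5b, again near the library medians, had 4.11 in MD1 EpiSCs and 4.52 in WT EpiSCs. Against the median of their own library, which removes the constant, Eif2s3x, Pbdc1 and 5530601H04Rik were lower in WT MEFs (−3.33, −2.81 and −2.79) than in WT EpiSCs (−2.48, −0.88 and −1.31). By this offset Ddx3x went the other way, with −3.15 in WT MEFs and −5.37 in WT EpiSCs. By rank it did not, at 12 of 747 genes from the lowest in WT MEFs and 43 of 719 in WT EpiSCs. Offsets from the median keep any difference in spread between libraries. Utp14a (0.060 in WT MEFs and −0.033 in WT EpiSCs) and Car5b (0.15 in WT MEFs and 0.35 in WT EpiSCs) were close to the median in both.

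**Figure D1:**
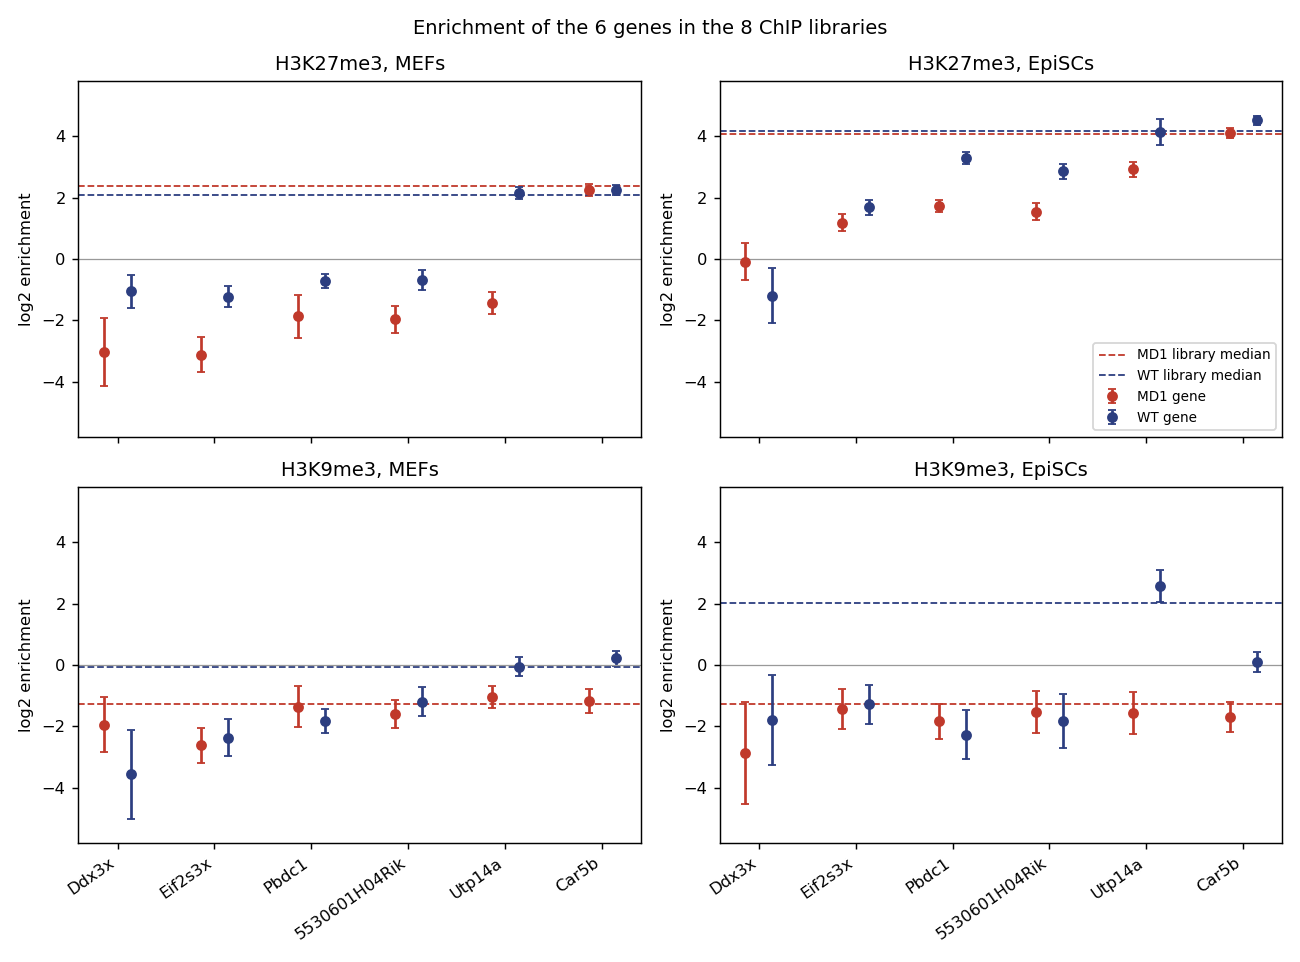
Log2 enrichment (vertical axis) of the 6 genes, with MD1 in red to the left of WT in blue, for H3K27me3 (top) and H3K9me3 (bottom) in MEFs (left) and EpiSCs (right). Points are 1 library each, bars are 95% counting intervals and dashed lines are library medians. In MEFs, H3K27me3 at Ddx3x, Eif2s3x, Pbdc1 and 5530601H04Rik lies under 0 in both genotypes, Utp14a is at −1.42 in MD1 and 2.15 in WT, and Car5b stays at 2.24.

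H3K9me3 set the same 4 genes apart in WT cells, and less so in MD1 cells. In MD1 EpiSCs all 6 genes lay on the low side of the library median of −1.27, from −2.88 at Ddx3x to −1.44 at Eif2s3x. Between these were Pbdc1 (−1.84), Car5b (−1.70), Utp14a (−1.57) and 5530601H04Rik (−1.53). In WT EpiSCs, where the library median was 2.03, Pbdc1 had −2.28, 5530601H04Rik −1.83, Ddx3x −1.80 and Eif2s3x −1.29. Their ranks from the lowest of 719 genes were 6, 14, 16 and 34 in that order. Car5b was at 0.097 (rank 173), under the library median but above the 4, and Utp14a was at 2.58 (rank 424), above the median. All 6 genes were under 0 in MD1 EpiSCs, as were 87.36% of all genes, and 4 of 6 in WT EpiSCs, as were 21.56% of all genes.

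In MD1 MEFs the 6 genes had H3K9me3 values of −1.95 (Ddx3x), −2.62 (Eif2s3x), −1.36 (Pbdc1), −1.59 (5530601H04Rik), −1.04 (Utp14a) and −1.18 (Car5b), against a library median of −1.26. In WT MEFs, Ddx3x had the lowest of the 6, −3.57, which was rank 3 of 747 on a ChIP count of 4. Eif2s3x followed with −2.38 (rank 6), Pbdc1 with −1.84 (rank 14) and 5530601H04Rik with −1.20 (rank 52). Utp14a (−0.054) was the median gene of that library, and Car5b had 0.21. Values under 0 were found for 6 of 6 genes in MD1 MEFs, with 88.86% of all genes under 0, and for 5 of 6 in WT MEFs, with 52.34% of all genes. Among MD1 libraries the lowest H3K9me3 rank of the 6 was 84 of 754 in MEFs (Eif2s3x) and 31 of 736 in EpiSCs (Ddx3x).

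Each gene was next set against its flanking genes, the 5 nearest genes on each side that had all 8 values. This comparison is made within a library, so the unknown constants cancel. The H3K27me3 dips were narrow in WT MEFs. Eif2s3x minus the median of its flanking genes was −4.08, and these genes all lay between 2.13 and 3.19. Its nearest measured neighbours, 22.3 kb and 65.3 kb away, were Klhl15 (2.97), which encodes an adaptor of a ubiquitin ligase, and the transcription factor gene Zfx (2.96). Ddx3x minus its flanking median of 2.83 was −3.89. Its nearest neighbours were 2010308F09Rik (3.35), at 33.3 kb, and Nyx (2.61), which encodes a retinal protein, at 174 kb.

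The divergent neighbours formed 1 shared dip of 2 genes. In WT MEFs the difference from the flanking median was −3.12 at Pbdc1 and −3.29 at 5530601H04Rik. Magee1, a gene of the MAGE family only 3.31 kb beyond the end of Pbdc1, had 2.64, and 1700121L16Rik, 198 kb beyond the other end, had 2.02. In WT EpiSCs the dip of this locus was shallower, with differences of −1.36 at Pbdc1 and −1.85 at 5530601H04Rik, while Magee1 had 4.74. Each of the divergent neighbours is among the other's flanking genes.

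Counted over the 6 genes, H3K27me3 at least 2-fold under the flanking median was found for 5 in MD1 MEFs (23.93% of all genes), 4 in WT MEFs (5.731%), 5 in MD1 EpiSCs (11.32%) and 4 in WT EpiSCs (10.89%). Ddx3x, Eif2s3x, Pbdc1 and 5530601H04Rik were so in all 4 libraries. Utp14a made the fifth in MD1 cells, with −3.72 in MD1 MEFs and −0.23 in WT MEFs, and −1.22 in MD1 EpiSCs and −0.18 in WT EpiSCs. Car5b differed from its flanking median by between −0.23 and 0.11 in all 4 libraries.

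For H3K9me3 the counts were smaller. At least 2-fold under the flanking median were 1 gene in MD1 MEFs (13.47% of all genes), 3 in WT MEFs (6.447%), 1 in MD1 EpiSCs (12.61%) and 2 in WT EpiSCs (7.593%). The 3 in WT MEFs were Ddx3x (−2.96), Eif2s3x (−1.72) and Pbdc1 (−1.36), and the 2 in WT EpiSCs were Pbdc1 (−3.05) and 5530601H04Rik (−1.70). In WT EpiSCs Ddx3x and Eif2s3x lay in stretches with little H3K9me3, with flanking medians of −0.85 and −0.43, and differed from these by −0.95 and −0.85. Taking all genes within 1 Mb as flanking genes made the count in WT EpiSCs 4. Utp14a lay within a stretch where all 10 flanking genes had between 1.79 and 2.87, and exceeded their median by 0.46.

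**Figure D2:**
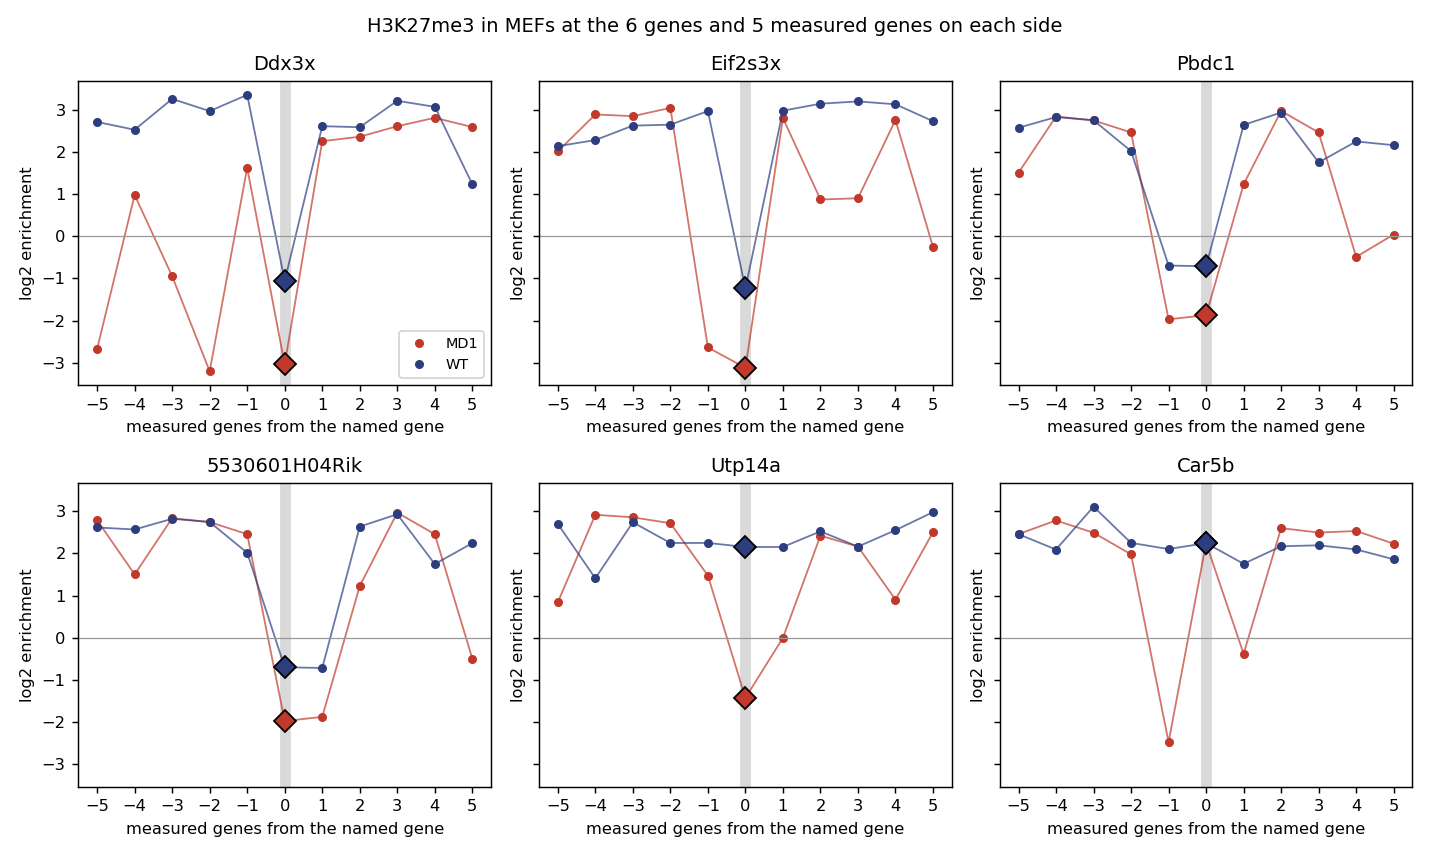
H3K27me3 log2 enrichment (vertical axis) in MEFs at each of the 6 genes (diamonds at 0) and at the 5 measured genes on each side in chromosome order (circles), MD1 in red and WT in blue, 1 library each. WT dips at Ddx3x, Eif2s3x and the divergent neighbours return to 2.02 or more at the next gene, and Utp14a has −1.42 in MD1 where WT has 2.15.

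**Figure D3:**
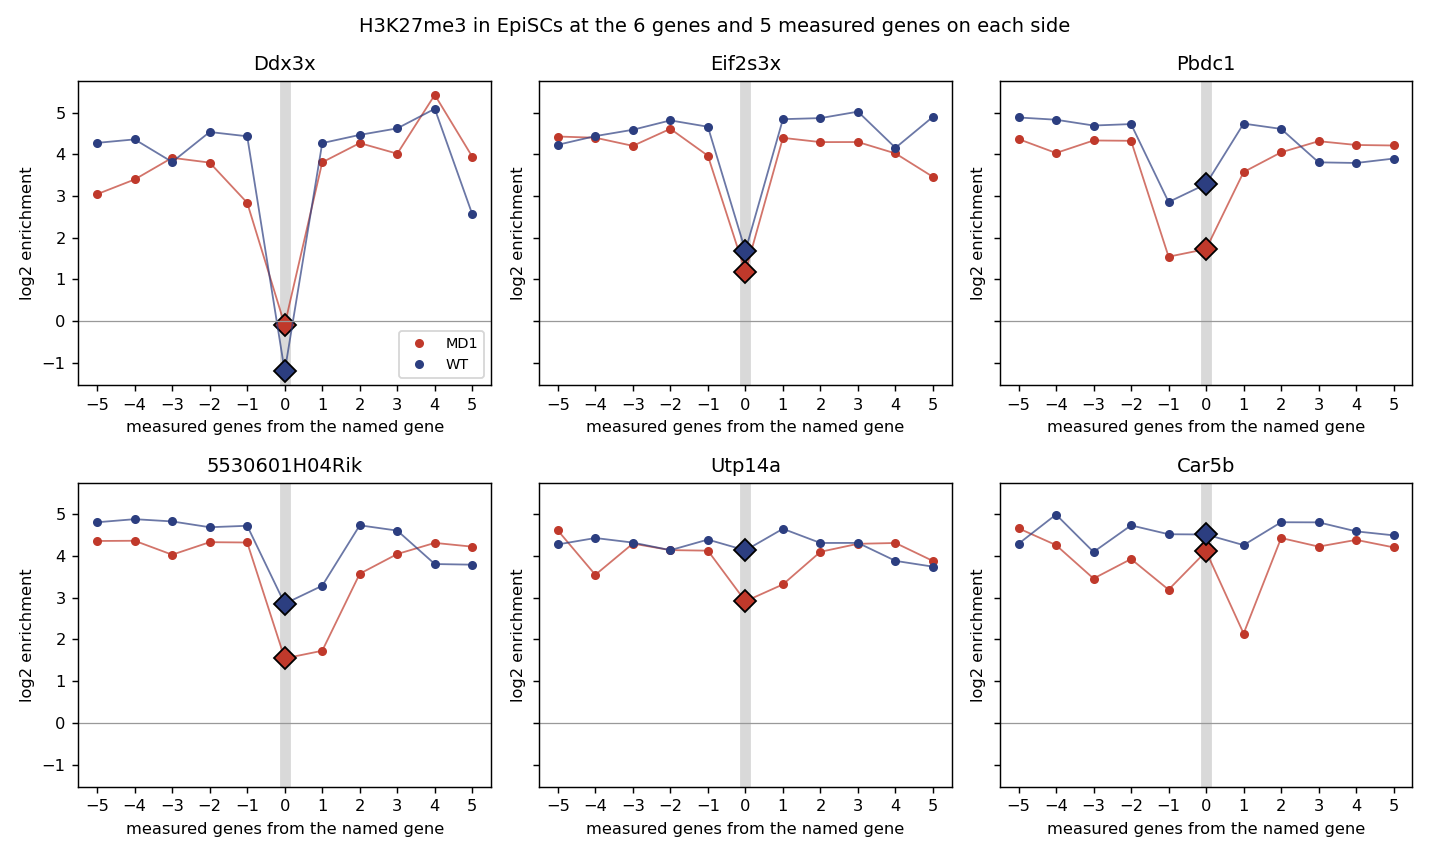
H3K27me3 log2 enrichment (vertical axis) in EpiSCs at the 6 genes (diamonds at 0) and at the 5 measured genes on each side in chromosome order, MD1 in red and WT in blue, 1 library each. Ddx3x minus its flanking median is −3.95 in MD1 and −5.60 in WT, and for Car5b this is −0.10 in MD1 and −0.041 in WT.

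**Figure D4:**
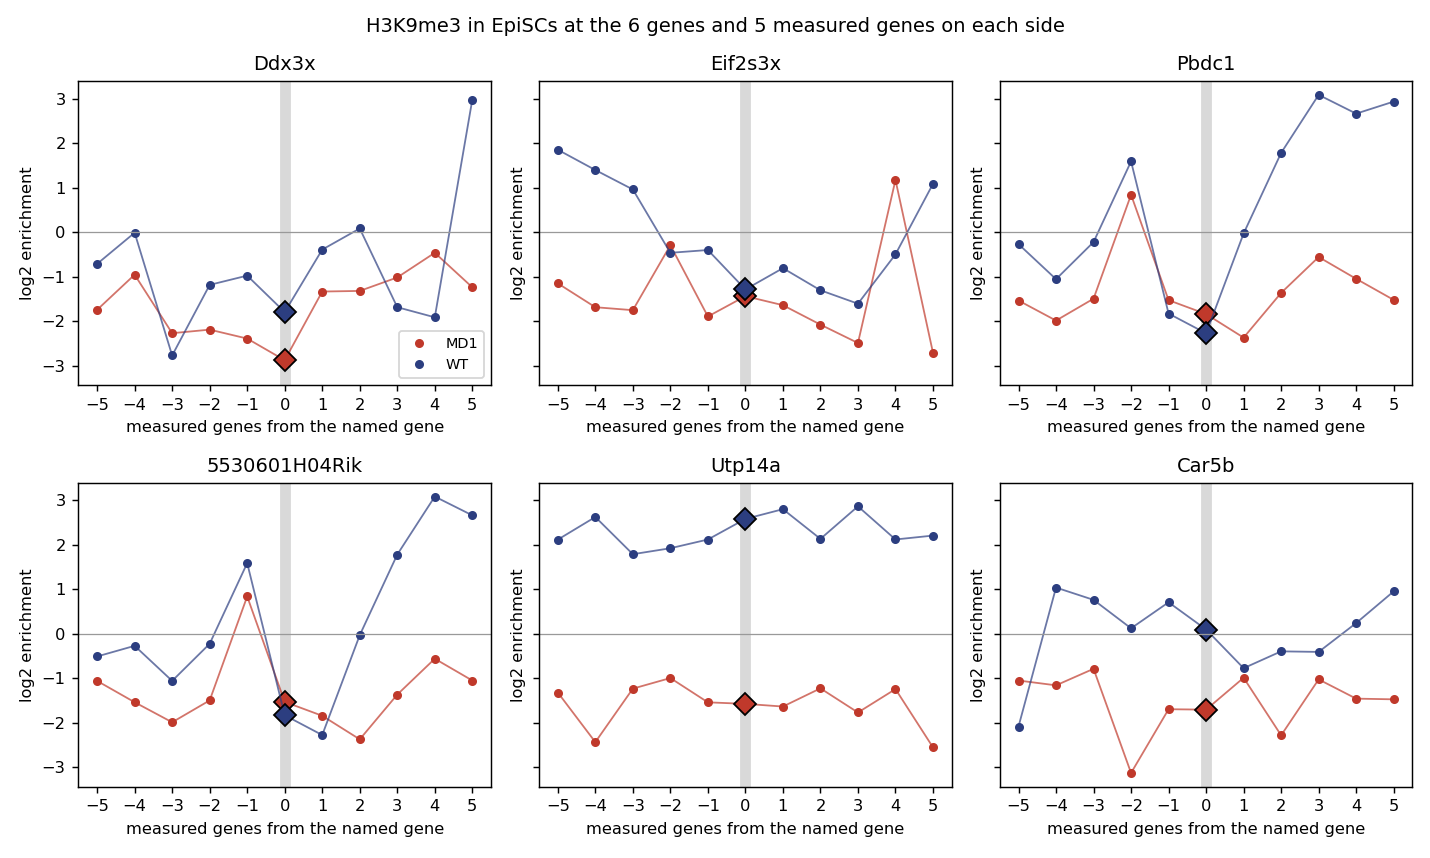
H3K9me3 log2 enrichment (vertical axis) in EpiSCs at the 6 genes (diamonds at 0) and at the 5 measured genes on each side in chromosome order, MD1 in red and WT in blue, 1 library each. Utp14a and its flanking genes lie between −2.55 and −0.99 in MD1 and between 1.79 and 2.87 in WT.

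Without SmcHD1, H3K27me3 in MEFs was lower at 5 of the 6 genes by at least 2-fold. Among all 739 genes with values in both genotypes 24.0% were at least 2-fold lower, 22.3% at least 2-fold higher, and the median change was −1.58 for the 6 genes against 0.34 for all. Utp14a had by far the largest difference of the 6, −3.58 (−3.99 to −3.17), an 11.9-fold lower enrichment. Ddx3x differed by −1.98 (−3.22 to −0.75), Eif2s3x by −1.88 (−2.55 to −1.21), 5530601H04Rik by −1.27 (−1.83 to −0.72) and Pbdc1 by −1.16 (−1.89 to −0.43). For these 4 the values were under 0 in both genotypes, and the MD1 ChIP counts were 7, 26, 47 and 20 in the same order. Car5b differed by −0.0019 (−0.25 to 0.25) on the deposited scale. It differed by −0.27 once each library was centred on genes with H3K9me3 enriched under 2-fold in WT MEFs. With a pseudocount of 0.1 the count was 4 of 6, since Pbdc1 came to −0.93, and 173 of all 739 genes were lower. A filter that dropped the lowest 10% of genes kept Utp14a and Car5b, of which 1 was lower, as were 122 of all 665 genes kept.

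The flanking genes of Car5b had a median change of 0.15 in MEFs and those of Utp14a one of −0.29, but both genes next to Car5b were at least 2-fold lower in MD1. Zrsr2, a splicing factor gene 18.2 kb from Car5b, had −2.47 in MD1 MEFs and 2.10 in WT MEFs, a change of −4.58. Siah1b, a ubiquitin ligase gene on the other side at 42.7 kb, had −0.38 in MD1 MEFs and 1.75 in WT MEFs, a change of −2.13. Next to Utp14a, 9530027J09Rik, which shares 65.5% of its length with Utp14a and so is no independent value, had −0.00050 in MD1 MEFs and 2.15 in WT MEFs, a change of −2.15. On the other side of Utp14a, Zdhhc9, which encodes a palmitoyltransferase, changed by −0.77.

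In EpiSCs, H3K27me3 was at least 2-fold lower without SmcHD1 at 3 of the 6 genes and at least 2-fold higher at 1. Among all 708 genes 11.3% were lower and 22.7% higher by this measure, and the median change was −0.069. The 3 were Pbdc1 at −1.56 (−1.84 to −1.28), 5530601H04Rik at −1.31 (−1.69 to −0.93) and Utp14a at −1.22 (−1.70 to −0.73). Once each library was centred on genes outside the H3K9me3-rich set (genes with H3K9me3 enriched at least 2-fold in WT cells of that type), a shift of −0.47, only Pbdc1 (−1.09) was still at least 2-fold lower. The gene that was higher was Ddx3x, at 1.11 (0.037 to 2.19), between values under 0 and on ChIP counts of 35 in MD1 and 12 in WT. It was under 2-fold with a pseudocount of 0.1, and 1.58 after centring. Eif2s3x (−0.51, −0.88 to −0.13) and Car5b (−0.40, −0.63 to −0.18) differed by under 2-fold.

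Set side by side, the H3K27me3 changes in MEFs and EpiSCs differed most at Ddx3x and Utp14a. At 5530601H04Rik the change in MEFs minus that in EpiSCs was 0.036 (−0.64 to 0.71), at Pbdc1 0.40 (−0.38 to 1.18) and at Car5b 0.40 (0.068 to 0.74). Intervals of this width leave room for differences of up to 1.18 at Pbdc1. At Utp14a the same difference was −2.36 (−3.00 to −1.72), at Eif2s3x −1.38 (−2.14 to −0.61) and at Ddx3x −3.10 (−4.73 to −1.46). Each of these holds the constants of 4 libraries. No test between cell types was possible.

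At the 4 genes low in H3K9me3 in WT cells, every MD1 minus WT interval for that mark included 0 on the deposited scale. These genes were grouped by the WT value that is itself part of this change, so the grouping bears on the result. In EpiSCs 3 of the 6 genes were at least 2-fold lower in MD1 and 0 were higher, where 82.9% of all genes were lower and 1.13% higher. Utp14a differed by −4.16 (−5.02 to −3.30), close to the median change of its flanking genes (−3.55). Car5b differed by −1.80 (−2.39 to −1.21), with a flanking median change of −1.79. Ddx3x differed by −1.08 with an interval of −3.30 to 1.14, on ChIP counts of 3 in MD1 and 4 in WT, and was 0.10 after centring, so its direction depends on the scaling. Eif2s3x (−0.15, −1.05 to 0.75), 5530601H04Rik (0.30, −0.82 to 1.42) and Pbdc1 (0.43, −0.55 to 1.41) had intervals that included 0. After centring these 3 were at least 2-fold higher, by 1.04, 1.49 and 1.62, as were 38 of all 708 genes. Centring took the same shift of −1.19 from each value and its interval, so intervals of these 3 genes above 0 follow from that shift.

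In MEFs, H3K9me3 was at least 2-fold lower in MD1 at 1 of the 6 genes and at least 2-fold higher at 1, where 51.3% of all genes were lower and 0.677% higher. Car5b was the lower one, at −1.39 (−1.85 to −0.94), and Utp14a was just under 2-fold at −0.98 (−1.46 to −0.50). After centring Car5b changed by −0.41 and Utp14a by 0.0052. Ddx3x was the higher one, at 1.62, and its interval of −0.087 to 3.33 included 0. Its ChIP counts were 11 in MD1 and 4 in WT. On the deposited scale 5530601H04Rik (−0.39), Eif2s3x (−0.25) and Pbdc1 (0.48) had intervals that included 0. After centring these changes were 0.60, 0.74 and 1.46, and that of Ddx3x was 2.61. Ddx3x and Pbdc1 were then at least 2-fold higher, as were 55 of all 739 genes. The shift of −0.99 was near the median change of all genes (−1.02). It moved each interval without changing its width, so intervals of these genes above 0 follow from its size.

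**Figure D5:**
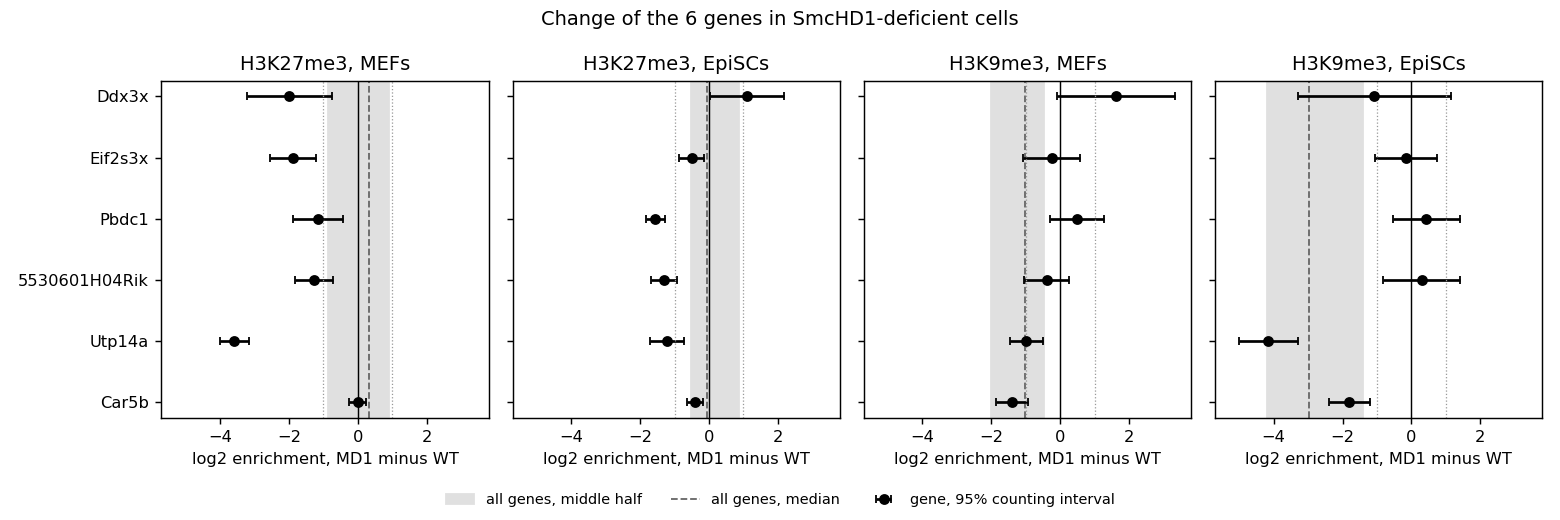
Difference in log2 enrichment, MD1 minus WT (horizontal axis), for the 6 genes in H3K27me3 and H3K9me3, MEFs left of EpiSCs for each mark. Points are differences between 1 library each with 95% counting intervals, grey bands are the interquartile range of all genes, dashed lines mark their median and dotted lines a 2-fold change. On the deposited scale H3K27me3 in MEFs is lower at 5 genes while Car5b is at −0.0019, and 4 genes lie to the right of the grey band for H3K9me3 in EpiSCs.

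Set against the change of their flanking genes, which removes the library constants, the H3K27me3 difference stayed large at Utp14a. In MEFs, 3 of the 6 genes were at least 2-fold lower than the flanking change, where 22.6% of all genes were. These were Utp14a (−3.29), Eif2s3x (−1.61) and 5530601H04Rik (−1.28). None was at least 2-fold higher, where 14.9% of all genes were. Taking 2 flanking genes on each side gave 1 gene lower, Utp14a, and 1 higher, Car5b, so that Eif2s3x and 5530601H04Rik were no longer counted. In EpiSCs 2 genes were at least 2-fold lower, Utp14a (−1.20) and Pbdc1 (−1.10), where 9.03% of all genes were, and none with 2 flanking genes on each side. Ddx3x was 1.65 higher than its flanking change, where 11.2% of all genes were at least 2-fold higher.

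For H3K9me3 the same measure differed by gene and cell type. In EpiSCs, the changes of Pbdc1 (2.24), 5530601H04Rik (1.57) and Eif2s3x (1.04) were at least 2-fold higher than the flanking change, as were 16.3% of all genes. Their own changes were only 0.43, 0.30 and −0.15, with flanking median changes of −1.81, −1.27 and −1.19. With 2 flanking genes on each side, 2 of the 6 were at least 2-fold higher. In MEFs, the change of Ddx3x was at least 2-fold higher than the flanking change (2.10), as were 8.74% of all genes. Of the low genes, 5530601H04Rik in MEFs (−0.33) and Ddx3x in EpiSCs (−0.11) lay under their flanking change, and Pbdc1 (0.73) and Eif2s3x (0.44) in MEFs above it by under 2-fold. None of the 6 genes was at least 2-fold lower than its flanking change in MEFs, where 17.2% of all genes were, or in EpiSCs, where 18.1% were. Since the 2 marks of a cell share an input, errors in that input move both.

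Over the 8 libraries, each centred on its median, the nearest gene in pattern was looked for among all 698 genes by Euclidean distance. Pbdc1 and 5530601H04Rik were each other's nearest, at 0.99, where the median distance of Pbdc1 to all genes was 7.45. Eif2s3x was nearest to Kdm5c (2.32), a histone demethylase gene, then 5530601H04Rik (2.42) and Pbdc1 (2.78). Ddx3x was nearest to Xist (3.26), then Eif2s3x (3.77) and Jpx (3.88), a non-coding gene beside Xist. Pbdc1 came next to Ftx (2.33), also a non-coding gene near Xist, and to Kdm5c (2.34), and 5530601H04Rik to Kdm5c (2.04) and Eif2s3x (2.42). Utp14a and Car5b were like none of these. Utp14a was nearest to Mbtps2 (1.02), Ikbkg (1.04) and Slc10a3 (1.17). Car5b was nearest to Ndp (0.73), Prps2 (0.93) and Nup62cl (0.95).

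Of 8 other genes reported to escape in mouse (Kdm6a, Kdm5c, Xist, Jpx, Ftx, Mid1, Shroom4 and 1810030O07Rik), 2 were at least 2-fold lower in H3K27me3 in MD1 MEFs, with a median change of −0.27, and 5 in MD1 EpiSCs, with a median change of −1.63. The 2 in MEFs were 1810030O07Rik, which had −2.67 in MD1 MEFs and 2.38 in WT MEFs, and Kdm5c, which had −3.07 in MD1 MEFs and −1.45 in WT MEFs. Mid1, which encodes a ubiquitin ligase, had 2.26 in MD1 MEFs and 2.22 in WT MEFs. Over all genes 24.0% were lower in MEFs and 11.3% in EpiSCs. In H3K9me3, 2 of the 8 were lower in MD1 MEFs, where 51.3% of all genes were, and 2 in MD1 EpiSCs, where 82.9% were. None of the 8 was at least 2-fold higher in either mark. Over all genes 22.3% were so in H3K27me3 in MEFs and 22.7% in EpiSCs, but only 0.677% in H3K9me3 in MEFs and 1.13% in EpiSCs. Of 7 genes known to be silenced (Atrx, G6pdx, Gla, Hprt, Huwe1, Pgk1 and Rlim) the median H3K27me3 was −0.72 in MD1 MEFs and 2.08 in WT MEFs. All 7 were at least 2-fold lower in MD1 MEFs, with a median change of −2.74, where Utp14a had −3.58 and Car5b −0.0019. In EpiSCs 0 of the 7 were at least 2-fold lower, with a median change of −0.094, where Utp14a had −1.22 and Car5b −0.40.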

How the data were processed

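H3K27me3 and H3K9me3 ChIP-seq libraries were compared between MD1 and WT MEFs and EpiSCs. Per the labels' protocols, the NEBNext Ultra II kit was used. BWA, SAMtools, cutadapt and build mm9 are named, per the submitters' processing notes. Nothing used here states tool versions, how reads were counted, from which allele, or whether a pseudocount was added. Each gene has 1 value per ChIP library, a log2 enrichment deposited by the authors. All further values were computed from them with python 3.11.15, numpy 2.4.6 and pandas 2.3.3.

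The deposited values could be written as whole-number ratios multiplied by 1 library constant for 100% of genes in each library (denominators up to 30000, relative tolerance 1e-12). After small random shifts of the values at most 0.556% matched. The 2 marks of the same cells were given a common input count. The smallest fitting counts were used, so the true counts may be multiples of them. The procedure was tested on simulated counts. Intervals use a normal approximation on the log scale. Depth as the sum of smallest ChIP counts ran from 98736 to 1186942 in MEFs and from 33117 to 1804080 in EpiSCs.

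Changes are MD1 minus WT, counted at 2-fold. Deposited starts count from 0 (346 of 841 name-matched RefSeq genes had equal length when read so, 36 otherwise) and are printed from 1. The genes, lists and settings were chosen with earlier results of these data known. By the naming rule, all 6 genes, the nearest gene on each side, 3 genes of most like pattern and the 2 context lists were named. Alternatives were another scale, pseudocount, threshold, filters and flanking sets.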

Additional observations from a re-analysis of the deposited data

Results flagged for a closer look

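With 1 library per group, results were marked here where the change without SmcHD1 had opposite signs in MEFs and EpiSCs, and none of these differences was tested. For Ddx3x the H3K27me3 change was −1.98 in MEFs and 1.11 in EpiSCs, a difference of −3.10 (95% counting interval −4.73 to −1.46). Its H3K9me3 change was 1.62 in MEFs and −1.08 in EpiSCs, a difference of 2.70 (−0.097 to 5.50), on ChIP counts of 3 to 11. For 5530601H04Rik the H3K9me3 change was −0.39 in MEFs and 0.30 in EpiSCs, a difference of −0.69 (−1.98 to 0.60). Both H3K9me3 differences depend on the scaling. After centring on genes outside the H3K9me3-rich set, the H3K9me3 change was 2.61 in MEFs and 0.10 in EpiSCs at Ddx3x, and 0.60 in MEFs and 1.49 in EpiSCs at 5530601H04Rik, so that neither gene had opposite signs.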

How the results depend on the processing

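No paired analysis was possible because each group had 1 library, and for the same reason no replicate could be left out. Of 112 counts recomputed under the alternatives, 78 stayed within 1.5 times the first value and 34 did not. Of 48 recomputed single-gene changes, 32 moved by less than their counting interval, 15 by more, and 1 past 2-fold changed sign, Ddx3x H3K9me3 in EpiSCs, at 0.10 after centring. Among changes under 2-fold, centring also turned H3K9me3 in MEFs at Eif2s3x (0.74), 5530601H04Rik (0.60) and Utp14a (0.0052), H3K9me3 in EpiSCs at Eif2s3x (1.04), and H3K27me3 in EpiSCs at Car5b (0.061). Centring takes the same constant from every change of a mark and cell type, so these turns follow from its size. It was −1.19 for H3K9me3 in EpiSCs, −0.99 for H3K9me3 in MEFs, −0.47 for H3K27me3 in EpiSCs and 0.27 for H3K27me3 in MEFs. Which scale is right was not tested.

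Centring each library on genes outside the H3K9me3-rich set gave, for H3K27me3 in EpiSCs, 1 of the 6 genes and 46 of all 708 at least 2-fold lower. It made 1 of the 6 and 224 of all 708 at least 2-fold higher. For H3K9me3 in EpiSCs it gave 1 of the 6 lower and 3 higher, with 452 of all 708 genes lower and 38 higher. For H3K9me3 in MEFs it gave 0 of the 6 lower and 2 higher, with 187 of all 739 genes lower and 55 higher.

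A 3-fold threshold left, for H3K27me3 in MEFs, 3 of the 6 lower, with 145 of all 739 genes lower and 85 higher. For H3K27me3 in EpiSCs it left 0 of the 6 lower and 0 higher, with 39 of all 708 genes lower and 115 higher. For H3K9me3 it left 0 of the 6 and 244 of all 739 genes lower in MEFs, and 3 of all 708 genes higher in EpiSCs.

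With a pseudocount of 0.1, 0 of the 6 genes and 158 of all 708 were higher in H3K27me3 in EpiSCs. H3K9me3 was higher at 0 of the 6 and 3 of all 739 genes in MEFs, and at 5 of all 708 in EpiSCs. Without the lowest 10% of genes, 2 of the 6 remained in H3K27me3 in MEFs, of which 1 was lower, as were 122 of all 665. In EpiSCs 4 of the 6 remained, of which 0 were higher in H3K27me3, against 103 of all 637. H3K9me3 was then higher at 0 of the 4 remaining and 3 of all 665 genes in MEFs, and at 2 of all 637 in EpiSCs. With input counts of at least 20, H3K9me3 was higher at 3 of all 597 genes in MEFs and 3 of all 554 in EpiSCs. H3K27me3 was lower at 51 of these 554 in EpiSCs.

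Flanking genes within 1 Mb made 4 of the 6 at least 2-fold under the flanking H3K9me3 in WT EpiSCs. With 2 flanking genes on each side, the H3K27me3 change in MEFs was lower than the flanking change at 1 of the 6 (Utp14a) and higher at 1 (Car5b). In EpiSCs it was lower at 0. Shares over all genes were taken only with 5 flanking genes on each side. ChIP counts of 3 to 11 limit H3K9me3 at Ddx3x.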
